A study of Mus musculus with 9 samples.

Results

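The haemoglobin and erythroid genes Hba-a1, Hba-a2, Hbb-bs, Hbb-bt, Alas2 and Slc4a1 were taken by symbol from a table of 34745 genes, in which each of the 6 had 1 row. All 6 passed the filter on low counts, which left 14506 genes. RNA was measured by sequencing in 9 LLC tumours (a mouse Lewis lung carcinoma line) grown under the skin of wild-type male C57BL/6 mice. The hosts' age is given as 6 to 8 with no unit. Mice were randomised near a tumour volume of 100 mm3, and 3 tumours each came from hosts given BTZ (bortezomib, a proteasome inhibitor, 0.5 mg/kg) with an antibody against PDL1 (10 mg/kg), that antibody alone (10 mg/kg), or an isotype control antibody (10 mg/kg). All hosts thus received an antibody by intraperitoneal injection, and no group received BTZ alone. PDL1, found on tumour and immune cells, holds T cells back through PD-1. LLC is an established line that grows in this strain, and each library holds tumour cells together with host cells, blood included.

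Haemoglobin carries oxygen in red blood cells and is built from alpha and beta chains, each holding a haem group. Mice express adult alpha chains from Hba-a1 and Hba-a2 and adult beta chains, in C57BL/6, from Hbb-bs and Hbb-bt. Alas2 makes the first precursor of haem in red cell precursors, and Slc4a1 (band 3) exchanges chloride for bicarbonate across the red cell membrane and anchors its skeleton. Red cells of adult mammals lose their nucleus, and the youngest, the reticulocytes, keep globin and Alas2 mRNA for a short time in the circulation. In bulk tumour RNA, fewer cells of a type and less RNA per cell cannot be told apart.

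Gene positions are those of the deposited table, on mm10. Hba-a1 (ENSMUSG00000069919, chromosome 11, 32283511 to 32284465, plus strand) and Hba-a2 (ENSMUSG00000069917, chromosome 11, 32296489 to 32297298, plus strand) lie in the alpha globin cluster. Hbb-bs (ENSMUSG00000052305, chromosome 7, 103826534 to 103828096, minus strand) and Hbb-bt (ENSMUSG00000073940, chromosome 7, 103812524 to 103813996, minus strand) lie in the beta globin cluster. Alas2 is on chromosome X (ENSMUSG00000025270, 150547375 to 150570638, plus strand) and Slc4a1 on chromosome 11 (ENSMUSG00000006574, 102348824 to 102366203, minus strand).

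The copies of each globin are nearly the same in sequence, which bears on every count given for a single copy. In GENCODE M21 the coding sequences of Hba-a1 and Hba-a2 are 426 bases long and differ at 1 base, C381T, counted from 1 at the A of the start codon with the base of Hba-a1 first. Those of Hbb-bs and Hbb-bt are 441 bases long and also differ at 1 base, C417T, with the base of Hbb-bs first. Of all stretches of 100 bases in the main transcript of Hba-a2, 74.5% occur without a mismatch in that of Hba-a1, and of those in Hbb-bs 62.6% occur in Hbb-bt. In the other direction the shares are lower, 56.5% of those in Hba-a1 and 54.8% of those in Hbb-bt. How reads that match both copies were assigned is not given in the sources used here. The 60 coding bases around each difference are shown on the transcript strand, with the differing base in capitals (mm10, chr11:32284313-32284372 for Hba-a1, chr11:32297130-32297189 for Hba-a2, chr7:103826668-103826727 for Hbb-bs and chr7:103812659-103812718 for Hbb-bt).
Hba-a1: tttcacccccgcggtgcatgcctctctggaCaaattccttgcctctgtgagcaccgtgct
Hba-a2: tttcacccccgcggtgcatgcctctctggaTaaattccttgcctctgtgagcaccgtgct
Hbb-bs: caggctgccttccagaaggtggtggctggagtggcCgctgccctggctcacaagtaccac
Hbb-bt: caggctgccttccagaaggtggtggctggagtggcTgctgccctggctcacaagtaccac

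Upstream sequence is shown for the globin genes and Alas2, whose high and low tumours were much the same. The RefSeq table used here (GRCm38.p6) held an upstream window for 5 of the 6 genes. The 250 bases before the RefSeq start are at chr11:32283422-32283671 (plus strand) for Hba-a1, chr7:103827929-103828178 (minus strand) for Hbb-bs, chr7:103813924-103814173 (minus strand) for Hbb-bt and chrX:150547167-150547416 (plus strand) for Alas2. The deposited table places these genes' starts further upstream, so that 161 (Hba-a1), 168 (Hbb-bs), 73 (Hbb-bt) and 42 (Alas2) of the 250 bases lie inside the gene positions given above. Capitals mark matches on either strand to a GATA motif (the letters AGATAA, the letters AGATAG, the letters TGATAA or the letters TGATAG), the letters CACCC, the letters CCAAT or a TATA box (ATATAA). In Hbb-bt 2 CCAAT matches on opposite strands adjoin each other. The windows of Hba-a1 and Hba-a2 were identical over 297 bases once shifted by 3, so Hba-a2 is not shown again.
Hba-a1: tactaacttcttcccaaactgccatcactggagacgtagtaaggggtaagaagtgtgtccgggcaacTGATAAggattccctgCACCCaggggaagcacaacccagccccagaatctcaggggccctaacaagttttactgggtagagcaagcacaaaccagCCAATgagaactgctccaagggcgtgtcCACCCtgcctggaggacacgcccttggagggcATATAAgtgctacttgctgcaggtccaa
Hbb-bs: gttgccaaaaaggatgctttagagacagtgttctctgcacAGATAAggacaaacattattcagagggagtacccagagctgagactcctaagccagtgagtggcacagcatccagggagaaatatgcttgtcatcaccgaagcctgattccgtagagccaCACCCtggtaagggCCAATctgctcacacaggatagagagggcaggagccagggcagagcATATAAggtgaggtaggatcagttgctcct
Hbb-bt: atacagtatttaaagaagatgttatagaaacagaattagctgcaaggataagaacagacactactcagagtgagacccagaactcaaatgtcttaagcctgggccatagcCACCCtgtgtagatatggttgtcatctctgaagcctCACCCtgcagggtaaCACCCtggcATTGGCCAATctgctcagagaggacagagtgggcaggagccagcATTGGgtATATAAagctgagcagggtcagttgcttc
Alas2: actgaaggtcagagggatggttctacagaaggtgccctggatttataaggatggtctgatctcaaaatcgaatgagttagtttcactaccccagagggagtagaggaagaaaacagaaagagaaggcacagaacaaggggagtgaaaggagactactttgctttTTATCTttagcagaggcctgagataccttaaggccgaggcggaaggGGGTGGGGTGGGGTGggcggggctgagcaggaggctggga
ATATAA stood 28 bases before the RefSeq start in Hba-a1, 30 in Hbb-bs and 29 in Hbb-bt, and CCAAT 88, 76 and 75 bases before it on the plus strand. Alas2 had neither. A GATA match was present in Hba-a1, Hba-a2, Hbb-bs and Alas2, and CACCC in all 5. Among 32851 upstream windows of this length in the table, 9.1% held ATATAA, 33.8% CCAAT, 26.5% a GATA match and 52% CACCC. These are matches of letters, not sites shown to be bound.

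All 9 tumours contained adult globin RNA at a low level, and its amount differed 10.1-fold between tumours. The 4 globin genes summed to 182, 25.5 and 39.3 of each 1000000 counts in the BTZ+anti-PDL1 tumours (replicates 1, 2 and 3), 78.8, 41.7 and 51.9 in the anti-PDL1 tumours, and 123, 223 and 259 in the isotype tumours. The exact 95% binomial interval was 23.3 to 28.0 on that scale in the lowest tumour and 252 to 267 in the highest, for counting error only, so counting error is small beside the spread between tumours. The anti-PDL1 tumours all lay below the isotype tumours. BTZ+anti-PDL1 replicate 1 lay among the isotype values, and the other 2 tumours of that group were the lowest of the 9. The intervals of BTZ+anti-PDL1 replicate 3 (36.6 to 42.2) and anti-PDL1 replicate 2 (38.9 to 44.7) overlapped, so the order of these 2 lies within counting error.

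Total counts ran from 18.52 M to 21.51 M per tumour. Labelled as lung adenocarcinoma, the tumours expressed the epithelial keratin Krt18 at 56.6 to 113 CPM and Krt8 at 3.64 to 26.5 CPM. Of the other lung adenocarcinoma and epithelial markers listed, Nkx2-1, Sftpc and Sftpb had no count in any tumour. Napsa had 4.15 to 8.95 CPM, Cdh1 1.43 to 9.29 CPM and Krt19 0.053 to 3.96 CPM. Krt7 had at most 10 counts and Epcam at most 5. CPM here means counts per 1000000 after TMM scaling, and M means 1000000.

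Alpha globin is described first. Hba-a1 had 64.0, 7.26 and 13.7 CPM in the BTZ+anti-PDL1 tumours, 26.5, 15.7 and 16.9 CPM under anti-PDL1 alone, and 42.3, 80.1 and 57.2 CPM in the isotype tumours (replicates 1, 2 and 3 here and below). Hba-a2 had 36.3, 4.38 and 9.31 CPM with BTZ+anti-PDL1, 16.2, 8.57 and 9.87 CPM with anti-PDL1, and 25.5, 50.8 and 36.6 CPM with isotype. In both genes the anti-PDL1 and isotype tumours did not overlap, and BTZ+anti-PDL1 replicate 1 stood above every anti-PDL1 tumour while its replicate 2 lay below every anti-PDL1 tumour. Isotype replicate 2 was the highest of the 9 for both.

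Beta globin also had its anti-PDL1 tumours below all isotype tumours. Hbb-bs had 50.6, 9.72 and 10.9 CPM with BTZ+anti-PDL1, 24.5, 12.5 and 18.9 CPM with anti-PDL1, and 36.3, 66.9 and 135 CPM with isotype. Hbb-bt had 28.5, 3.90 and 5.20 CPM with BTZ+anti-PDL1, 11.5, 4.87 and 6.60 CPM with anti-PDL1, and 19.7, 32.8 and 25.3 CPM with isotype. Hbb-bs in isotype replicate 3 was the highest value of any of the 6 genes, in a tumour that ranked below isotype replicate 2 for Hbb-bt, Hba-a1 and Hba-a2.

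Alas2, which feeds haem synthesis in red cell precursors, had 15.4, 3.42 and 2.50 CPM with BTZ+anti-PDL1, 9.65, 3.60 and 5.66 CPM with anti-PDL1, and 11.3, 18.9 and 13.3 CPM with isotype. Its order of tumours resembled that of alpha globin, with isotype replicate 2 highest, BTZ+anti-PDL1 replicate 1 next and the anti-PDL1 tumours all below the isotype tumours. Slc4a1 was near the detection limit, with 26, 5 and 8 counts in the BTZ+anti-PDL1 tumours, 7, 0 and 3 counts in the anti-PDL1 tumours, and 15, 10 and 15 counts in the isotype tumours. The 0 in anti-PDL1 replicate 2 allows a level of up to 0.152 CPM (3 counts). Slc4a1 passed the filter through the tumours in which it is high, and its highest tumour was BTZ+anti-PDL1 replicate 1.

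**Figure D1:**
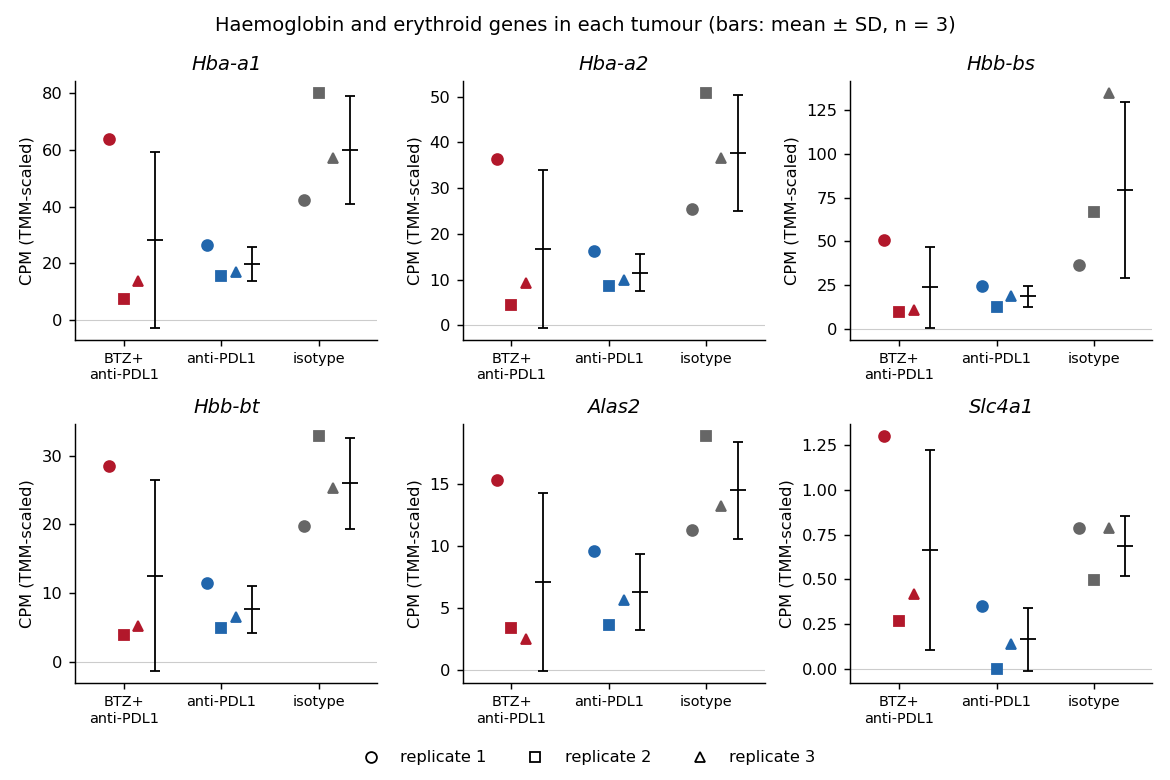
Level of each gene in every tumour, in CPM after TMM scaling on a linear axis of its own per gene. Each point is a tumour, coloured by group with a symbol per replicate, and black bars are the mean and SD of 3 tumours. The anti-PDL1 points lie below all isotype points for the globin genes and Alas2, where 6.61% of all genes were lower without overlap. They also do so for Slc4a1, which reached the filter only through tumours in which it is high. BTZ+anti-PDL1 replicate 1 lies far above the other 2 tumours of its group.

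For the globin genes and Alas2 the SD relative to the mean was widest in the BTZ+anti-PDL1 tumours. Hba-a1 averaged 28.3 ± 31.0 CPM in the BTZ+anti-PDL1 tumours, 19.7 ± 5.92 CPM under anti-PDL1 alone and 59.8 ± 19.1 CPM in the isotype tumours (SD, n = 3 each). For the 6 genes the SD was 84.5% to 110% of the mean with BTZ+anti-PDL1, 30.1% to 108% with anti-PDL1 (the top value being Slc4a1) and 24.4% to 63.6% with isotype (the top value being Hbb-bs). The SD of log2 CPM over the 9 tumours placed the 6 genes between the percentiles 97.2 and 98.1 of the 14506 genes tested, so they were among the most variable genes of these tumours.

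What the antibody changed by itself was asked by comparing the anti-PDL1 with the isotype tumours. All 6 genes had lower values in the anti-PDL1 tumours and none passed the test (0 of 6 at an edgeR adjusted p under 0.05, against 0.0138% of all genes). The fitted log2 fold change was -1.60 ± 0.773 for Hba-a1, -1.71 ± 0.744 for Hba-a2, -2.09 ± 0.787 for Hbb-bs and -1.76 ± 0.774 for Hbb-bt (SE). It was -1.20 ± 0.693 for Alas2 and -2.03 ± 0.867 for Slc4a1. The edgeR adjusted p was 0.763 for 5 of the genes and 0.791 for Alas2. DESeq2 called 0 of the 6, and limma on the FPKM values called 0 of the 5 it tested, Slc4a1 being under its filter.

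These fitted values correspond to levels between 2.30-fold (Alas2) and 4.26-fold (Hbb-bs) lower. Slc4a1 reached the filter only through tumours in which it is high, so it is left out of the counts that follow. The other 5 genes had at least 48 counts in every tumour. Of these 5, Hbb-bs alone was under an unadjusted edgeR p of 0.05 (0.0332 before adjustment), where 3.34% of all genes were lower by that rule. The groups did not overlap for 5 of 5 genes, where 6.61% of all genes were lower without overlap. Hba-a1 with Hba-a2, and Hbb-bs with Hbb-bt, are near-identical copies that may share reads, so the 5 are not separate measurements. The exact two-sided permutation test on log2 CPM gave p = 0.1 for each gene, the smallest p that 3 tumours against 3 allow. The 6 genes share their source cells and the same 6 tumours, so their shared direction adds no further tumours, and they were listed with earlier results of these data known. The median over the 5 was -1.71, and over all genes tested it was -0.0034. The SE of the members, 0.693 to 0.867, was well above the median SE of 0.138 over all genes and comparisons.

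What BTZ added to the antibody was asked by comparing the BTZ+anti-PDL1 with the anti-PDL1 tumours. The 6 fitted values were above 0, yet 2 of the 3 BTZ+anti-PDL1 tumours had less summed globin than any anti-PDL1 tumour. Of these, replicate 3 lay within counting error of the lowest anti-PDL1 tumour. None of the 6 passed (edgeR adjusted p = 0.854 to 0.983, against 0.0138% of all genes called). The log2 fold change was 0.53 ± 0.765 for Hba-a1, 0.53 ± 0.735 for Hba-a2, 0.35 ± 0.771 for Hbb-bs, 0.71 ± 0.767 for Hbb-bt and 0.17 ± 0.694 for Alas2. For Slc4a1, with 7, 0 and 3 counts in the anti-PDL1 tumours, it was 1.98 ± 0.869. Of the 5 genes other than Slc4a1, 0 were under an unadjusted p of 0.05, where 3.15% of all genes were higher by that rule. The groups overlapped for these 5 and for Slc4a1, where 14.3% of all genes had separate groups. The exact permutation p ran from 0.2 (Slc4a1) to 1 (Hba-a1 and Hbb-bs).

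For the globin genes and Alas2 the direction rested on BTZ+anti-PDL1 replicate 1. Without it the log2 fold changes were -0.91 for Hba-a1, -0.75 for Hba-a2, -0.85 for Hbb-bs, -0.75 for Hbb-bt and -1.09 for Alas2, and 1.04 for Slc4a1, each at an edgeR adjusted p of 0.998. Alas2 also turned to -0.11 without anti-PDL1 replicate 2. DESeq2 called 0 of the 6 with all tumours, giving no adjusted p for Slc4a1, and limma on FPKM called 0 of 5.

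The third comparison set the BTZ+anti-PDL1 against the isotype tumours, with which the first comparison shares its isotype tumours. Values were lower for 6 of 6 genes and none passed (edgeR adjusted p = 0.589 to 0.988, against 0.00689% of all genes called). The log2 fold change was -1.08 ± 0.761 for Hba-a1, -1.17 ± 0.730 for Hba-a2, -1.74 ± 0.776 for Hbb-bs, -1.05 ± 0.755 for Hbb-bt and -1.03 ± 0.690 for Alas2. For Slc4a1 it was -0.048 ± 0.754, with 39 counts in all in the 3 BTZ+anti-PDL1 tumours and 40 counts in the 3 isotype tumours. At an unadjusted p under 0.05 there were 0 of the 5 other genes, where 4.18% of all genes were lower by that rule, and groups were separate for 0 of the 5 where 13% of all genes were. The exact permutation p ran from 0.2 to 0.6.

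Here too single tumours moved the size by over 1.5 times. Without BTZ+anti-PDL1 replicate 1 the log2 fold change was -2.51 for Hba-a1, -2.46 for Hba-a2, -2.94 for Hbb-bs, -2.51 for Hbb-bt and -2.29 for Alas2 (edgeR adjusted p = 0.232 to 0.478) and -0.99 for Slc4a1 (0.751). Without BTZ+anti-PDL1 replicate 2 it was -0.62 for Hba-a1, -0.72 for Hba-a2 and -0.62 for Hbb-bt, and without replicate 3 it was -0.62 for Alas2. In the anti-PDL1 against the isotype tumours Slc4a1 was the gene that leaving out a tumour moved most, to -3.14 without anti-PDL1 replicate 1. DESeq2 called 0 of 6 and limma 0 of 5 in this comparison with all tumours.

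**Figure D2:**
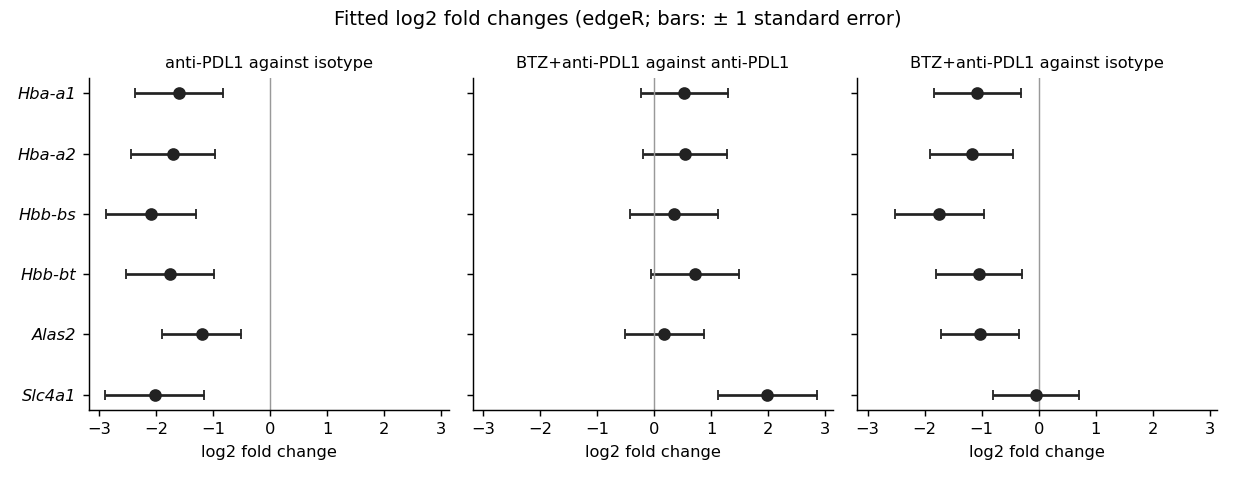
Fitted log2 fold change of each gene in the 3 comparisons, with bars of 1 standard error on each side, from 1 edgeR model over the 9 tumours. Values against isotype lie below 0 and those of BTZ+anti-PDL1 against anti-PDL1 above 0, from -2.09 to 1.98, and no gene passed the test.

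**Figure D3:**
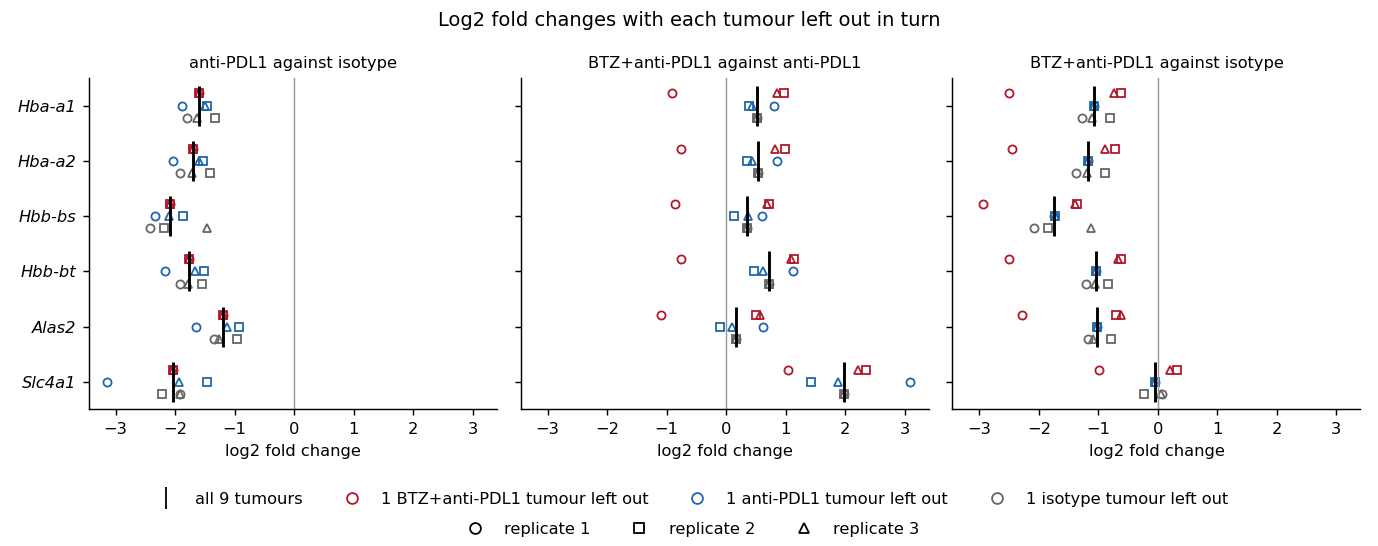
The same log2 fold changes with each tumour left out in turn. Black ticks mark the fit over all 9 tumours, and open symbols mark fits without a tumour, coloured by the group that lost it with a symbol per replicate. The red circles, without BTZ+anti-PDL1 replicate 1, stand apart to the left in both comparisons with BTZ, at -0.91 and -2.51 for Hba-a1.

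Adding the copies before the fit changed little. Hba-a1 plus Hba-a2 had a log2 fold change of -1.64 ± 0.770 and Hbb-bs plus Hbb-bt of -2.002 ± 0.776 in the anti-PDL1 against the isotype tumours (edgeR adjusted p = 0.763 for both). In the BTZ+anti-PDL1 against the isotype tumours they had -1.11 ± 0.758 and -1.54 ± 0.763 (adjusted p = 0.702 and 0.623), and against the anti-PDL1 tumours 0.53 ± 0.760 and 0.47 ± 0.760 (0.950 and 0.961).

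Ratios between the globin genes within a tumour varied less than their levels. Hba-a1 had 1.47 to 1.83 times the counts of Hba-a2 in the 9 tumours, a 1.24-fold range beside an 11.04-fold range in the CPM of Hba-a1. How reads that match both copies were split is not known, and ratios between copies depend on that split. Alpha counts were 2.99 to 4.98 times those of Hbb-bt. Alas2 had 10.8 to 29.4 counts per 100 alpha globin counts, with both ends of that range in the BTZ+anti-PDL1 group (29.4 in replicate 2 and 10.8 in replicate 3), where Alas2 itself had 64 and 48 counts. Slc4a1 had 0 to 16.7 counts per 100 counts of Alas2, a ratio of low counts. The ratio of Hbb-bs to Hbb-bt was 1.78, 2.49 and 2.10 in the BTZ+anti-PDL1 tumours, 2.13, 2.57 and 2.87 in the anti-PDL1 tumours, and 1.84, 2.04 and 5.33 in the isotype tumours. Isotype replicate 3 thus lay outside the range of the other 8 tumours (1.78 to 2.87), with 2586 counts of Hbb-bs beside 485 of Hbb-bt, and this tumour had an alpha to beta ratio of 0.585 where the other 8 had 0.855 to 1.43. Without that tumour the log2 fold change of Hbb-bs was -1.47 in the anti-PDL1 against the isotype tumours and -1.12 in the BTZ+anti-PDL1 against the isotype tumours.

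**Figure D4:**
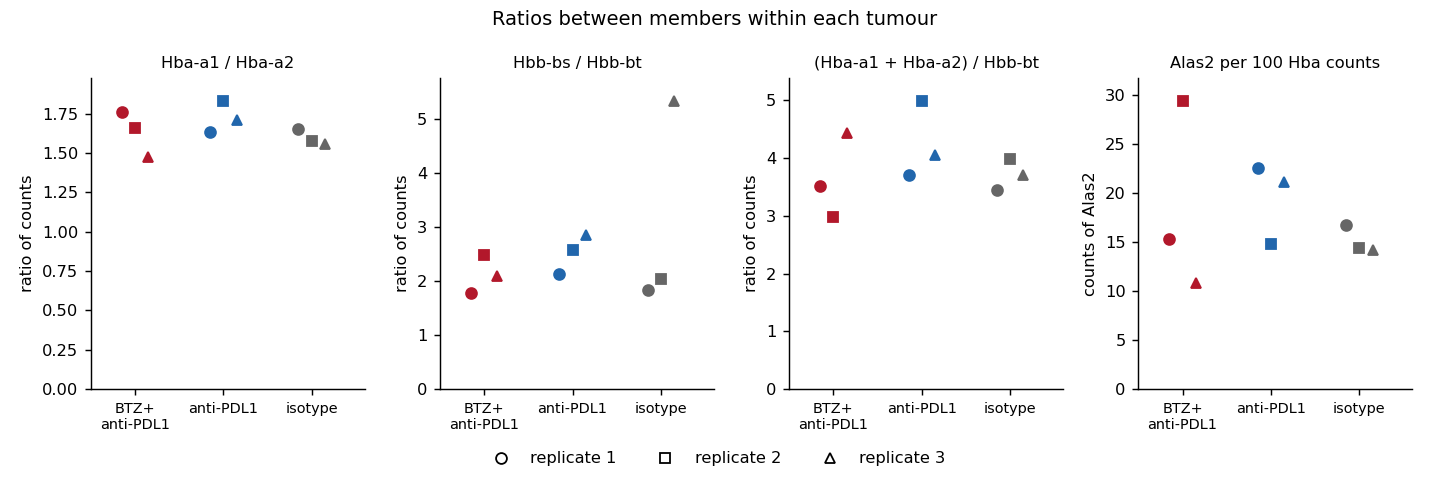
Ratios of counts between genes within each tumour, on axes from 0, with a point per tumour coloured by group. The ratio Hba-a1 to Hba-a2 stays between 1.47 and 1.83, and isotype replicate 3 stands apart at 5.33 for Hbb-bs to Hbb-bt.

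Levels between the genes depend on the length they are divided by. The deposited FPKM values, compared with counts and column totals, imply a length of 1193 bases for Hba-a1, 1048 for Hba-a2, 1734 for Hbb-bs and 703 for Hbb-bt. The main transcripts in GENCODE M21 have 699, 554, 628 and 703 bases, so the length used for Hbb-bs was 2.76 times its main transcript and that for Hbb-bt was the same. The first 3 lengths also exceed the spans of these genes in the table, 955, 810 and 1563 bases. On the FPKM scale the median level over 9 tumours was 14.2 for Hbb-bs and 16.4 for Hbb-bt, while per kilobase of main transcript it was 39.1 CPM for Hbb-bs and 16.4 CPM for Hbb-bt. The order of the 2 beta genes thus turned with the length used. On either scale the alpha genes (medians 22.2 and 15.5 FPKM) stood above Alas2 (3.02 FPKM) and Slc4a1 (0.0787 FPKM) in the median. Ratios between groups for the same gene do not depend on this length.

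Other erythroid genes show which part of the red cell programme was present. The embryonic globins Hba-x, Hbb-y, Hbb-bh1 and Hbb-bh2 had no count in any tumour, and the theta globins Hbq1a and Hbq1b had at most 3 counts. Of the erythroid transcription factors, Gata1 had at most 2 counts and Klf1, which activates adult beta globin, had 2 to 7 counts per tumour. The red cell membrane genes Rhag and Epb42 had at most 5 counts, and Car1, the carbonic anhydrase of red cells, had none. These levels are too low to compare groups. The alpha globin stabiliser Ahsp was not analysed here.

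Haem synthesis genes other than Alas2 did not share the pattern of the globins. Fech, which inserts iron into haem, had 54.5 to 70.2 CPM in the 9 tumours and Alas1, the counterpart of Alas2 outside red cells, 44.0 to 53.2 CPM. Of 11 haem synthesis genes, 6 had higher and 5 lower values in each of the 3 comparisons, and edgeR called 0. Their median log2 fold change was 0.032 in the anti-PDL1 against the isotype tumours, 0.017 in the BTZ+anti-PDL1 against the anti-PDL1 tumours and 0.0013 in the BTZ+anti-PDL1 against the isotype tumours, near the medians of all genes (-0.0034, 0.0029 and -0.0011). At an unadjusted p under 0.05 there were 0, 2 and 2 of the 11, where all genes gave 6.35%, 5.82% and 8.6% in either direction.

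Membrane, iron and regulatory genes of red cells were also not called. Of 17 red cell membrane and skeleton genes 9 were tested, and 7, 3 and 4 of them had lower values in the 3 comparisons in the same order (medians -0.14, 0.20 and 0.0098). The ankyrin Ank1, also made outside red cells, had 10.5 to 20.8 CPM. Sptb, the beta spectrin of red cells and muscle, had 2.15, 1.23 and 0.31 CPM with BTZ+anti-PDL1, 3.998, 0.41 and 1.45 CPM with anti-PDL1, and 0.52, 0.45 and 8.78 CPM with isotype. Of 12 erythropoietin and iron uptake genes 10 were tested, with 2, 9 and 5 lower (medians 0.12, -0.12 and 0.016). Epo had at most 1 count per tumour, its receptor Epor had 1.46 to 2.57 CPM, and the transferrin receptor Tfrc had 86.5 to 164 CPM. Of 9 erythroid transcription factors 6 were tested, with 3, 3 and 1 lower (medians 0.29, -0.047 and 0.11), among them Tal1 at 0.63 to 2.29 CPM and Nfe2 at 1.12 to 2.94 CPM, both also used outside the red lineage. At an unadjusted p under 0.05 these 3 lists held 0, 1 and 2 genes in the anti-PDL1 against the isotype comparison, 0, 0 and 1 in the BTZ+anti-PDL1 against the anti-PDL1 comparison, and 0, 0 and 2 in the BTZ+anti-PDL1 against the isotype comparison, of 9, 10 and 6 tested. Over all genes the shares were again 6.35%, 5.82% and 8.6%.

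Among the 13 reticulocyte and red cell enzyme genes 8 were tested, with 6, 3 and 5 lower in the 3 comparisons (medians -0.14, 0.12 and -0.096) and 0 called. Bpgm, which makes the 2,3-bisphosphoglycerate that loosens the grip of haemoglobin on oxygen, had 18.9, 15.7 and 15.7 CPM with BTZ+anti-PDL1, 17.5, 16.2 and 16.7 CPM with anti-PDL1, and 23.1, 17.9 and 21.8 CPM with isotype. Its log2 fold change was -0.32 ± 0.125 in the anti-PDL1 and -0.32 ± 0.125 in the BTZ+anti-PDL1 tumours, both against isotype (edgeR adjusted p = 0.763 and 0.549).

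Clearance of free haemoglobin and haem is the work of macrophages and plasma proteins. Hmox1, which breaks haem down, had 329, 164 and 401 CPM with BTZ+anti-PDL1, 274, 457 and 578 CPM with anti-PDL1, and 431, 622 and 601 CPM with isotype. Its log2 fold change was -0.89 ± 0.380 in the BTZ+anti-PDL1 against the isotype tumours (edgeR adjusted p = 0.580). The haemoglobin scavenger receptor Cd163 had 10.2, 4.11 and 4.94 CPM with BTZ+anti-PDL1, 19.0, 22.7 and 29.5 CPM with anti-PDL1, and 1.47, 17.8 and 22.05 CPM with isotype. The BTZ+anti-PDL1 and anti-PDL1 tumours did not overlap for Cd163, at a log2 fold change of -1.89 ± 0.836 (adjusted p = 0.861). In that comparison 14.3% of all genes had separate groups, and 2 of the 13 clearance genes tested did, a share near that of all genes. Of 14 clearance genes 13 were tested, with 7, 11 and 10 lower in the 3 comparisons (medians -0.0034, -0.15 and -0.32), 0 called and 0, 2 and 2 at an unadjusted p under 0.05 (all genes 6.35%, 5.82% and 8.6%). Haptoglobin (Hp) had 4.40 to 111 CPM with its highest value in isotype replicate 3, and the iron exporter Slc40a1 had 2.90 to 19.4 CPM.

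The genes most like Hbb-bs across the 9 tumours, by Pearson correlation of log2 CPM over 12217 named genes with a mean of at least 1 CPM, were not red cell genes. The first 10 outside the members, Cox6b1, Tbca, Timm13, Tmem258, Ier3ip1, Tmed9, Uqcc2, Lsm3, Snrpg and Hint1, had r of 0.939 to 0.978 over 9 tumours, as a description chosen for its size. Their own levels moved little, with a highest to lowest ratio of 1.28 to 1.59 where Hbb-bs had 13.9. All 10 were shorter than the median gene by the length implied in the FPKM values (median 1458 bases for the 10, 5527 bases for all compared). Cox6b1, a subunit of cytochrome c oxidase, had 86.1, 65.0 and 70.2 CPM with BTZ+anti-PDL1, 76.9, 72.7 and 71.6 CPM with anti-PDL1, and 82.5, 87.0 and 103 CPM with isotype. Hbb-bt, Hba-a2, Hba-a1 and Alas2 ranked 12, 18, 20 and 33 by the same measure. These members were highest in isotype replicate 2, whereas Hbb-bs and each of the 10 genes were highest in isotype replicate 3. The list thus leans on that tumour and describes likeness to Hbb-bs alone, no other member having been used as the reference. The part of transcript length in the globin values was not tested.

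Markers of other tissue differed between the same tumours. Skeletal muscle markers (10 genes) summed to 720, 17.7 and 5.36 CPM in the BTZ+anti-PDL1 tumours, 957, 101 and 191 CPM under anti-PDL1 alone, and 5.93, 7.57 and 2581 CPM in the isotype tumours. The tumour richest in muscle RNA was in each group also the one with the highest globin sum (replicate 1, replicate 1 and replicate 3). In the isotype group this held through Hbb-bs: for Hba-a1, Hba-a2, Hbb-bt and Alas2 the highest isotype tumour was replicate 2, with 7.57 CPM of muscle markers. Ckm, the creatine kinase of muscle, had no count in BTZ+anti-PDL1 replicate 3 and isotype replicate 1. Among the 6 tumours left without those 3, the globin genes summed to 25.3 and 39.2 CPM with BTZ+anti-PDL1, 41.6 and 52.3 CPM with anti-PDL1, and 124 and 231 CPM with isotype, and the isotype tumours were higher than the other 4.

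A fit over those 6 tumours gave log2 fold changes of -1.91 for Hba-a1, -2.05 for Hba-a2, -1.71 for Hbb-bs, -2.19 for Hbb-bt and -1.70 for Alas2 in the anti-PDL1 against the isotype tumours (edgeR adjusted p = 0.261 to 0.472), with Slc4a1 under the filter. In the BTZ+anti-PDL1 against the isotype tumours the 5 values ran from -2.54 to -2.32 (adjusted p = 0.215 to 0.294). In the BTZ+anti-PDL1 against the anti-PDL1 tumours they ran from -0.65 to -0.34 (0.934 to 0.959), the direction opposite to that over 9 tumours. The tumours left out were chosen after the data were seen and had the highest globin sum of their group. This fit is therefore not independent of the globin values. The anti-PDL1 tumours kept still had 101 and 191 CPM of muscle markers, where those kept in the other groups had 5.36 to 17.7 CPM.

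Platelet and endothelial markers bear on how much blood and how many vessels a tumour piece held. The 12 platelet markers summed to 72.1 to 107 CPM in the BTZ+anti-PDL1, 67.8 to 141 CPM in the anti-PDL1 and 74.1 to 168 CPM in the isotype tumours, and the platelet chemokine Pf4, which macrophages also make, had 20.3 to 87.8 CPM. Of 6 platelet markers tested 5, 3 and 4 had lower values in the 3 comparisons (medians -0.29, -0.11 and -0.22) and edgeR called 0. Ppbp, another platelet chemokine, had 9.70, 3.15 and 15.5 CPM with BTZ+anti-PDL1, 2.499, 12.4 and 28.0 CPM with anti-PDL1, and 3.20, 29.5 and 30.9 CPM with isotype. Its log2 fold change was -0.57 ± 1.07 in the anti-PDL1 and -1.16 ± 1.09 in the BTZ+anti-PDL1 tumours, both against isotype. Anti-PDL1 replicate 1 had the lowest platelet sum of the 9 and the highest globin of its group. In the isotype group the platelet sums (74.1, 144 and 168 CPM in replicates 1, 2 and 3) rose in the order of the globin sums. The 12 endothelial markers summed to 312 to 365 CPM with BTZ+anti-PDL1, 383 to 452 CPM with anti-PDL1 and 357 to 510 CPM with isotype, and BTZ+anti-PDL1 replicate 1, high in globin, had the lowest sum. Of the endothelial markers 11, 12 and 12 of 12 had lower values in the 3 comparisons (medians -0.22, -0.36 and -0.55) and edgeR called 0, with 0, 2 and 9 at an unadjusted p under 0.05, where all genes gave 6.35%, 5.82% and 8.6%. The 12 neutrophil markers, of white cells that travel with blood, summed to 34.9 to 68.9 CPM with BTZ+anti-PDL1, 74.6 to 102 CPM with anti-PDL1 and 48.2 to 109 CPM with isotype.

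Leukocyte marker sums did not overlap between the isotype and the other tumours, while the groups overlapped in fat markers. The 6 leukocyte markers summed to 358 to 411 CPM with BTZ+anti-PDL1, 370 to 411 CPM with anti-PDL1 and 194 to 324 CPM with isotype, so the isotype tumours lay below the other 6. Of 5 tested, 5, 3 and 5 had higher values in the 3 comparisons (medians 0.54, 0.0051 and 0.48), and edgeR called 0. Taken gene by gene, 1 of the 5 was higher without overlap in the anti-PDL1 against the isotype tumours, where 882 of 14506 genes were. In the BTZ+anti-PDL1 against the isotype tumours 2 of the 5 were, where 1010 of 14506 genes were. The 6 adipocyte markers summed to 9.02 to 33.3 CPM with BTZ+anti-PDL1, 15.9 to 28.7 CPM with anti-PDL1 and 10.1 to 106 CPM with isotype, the highest sum being in isotype replicate 3. Of 4 tested, 4, 1 and 4 had lower values (medians -1.02, 0.055 and -0.78), and edgeR called 0. The part of blood content, vessels, leukocytes, fat and adjacent muscle in the globin values was not tested.

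**Figure D5:**
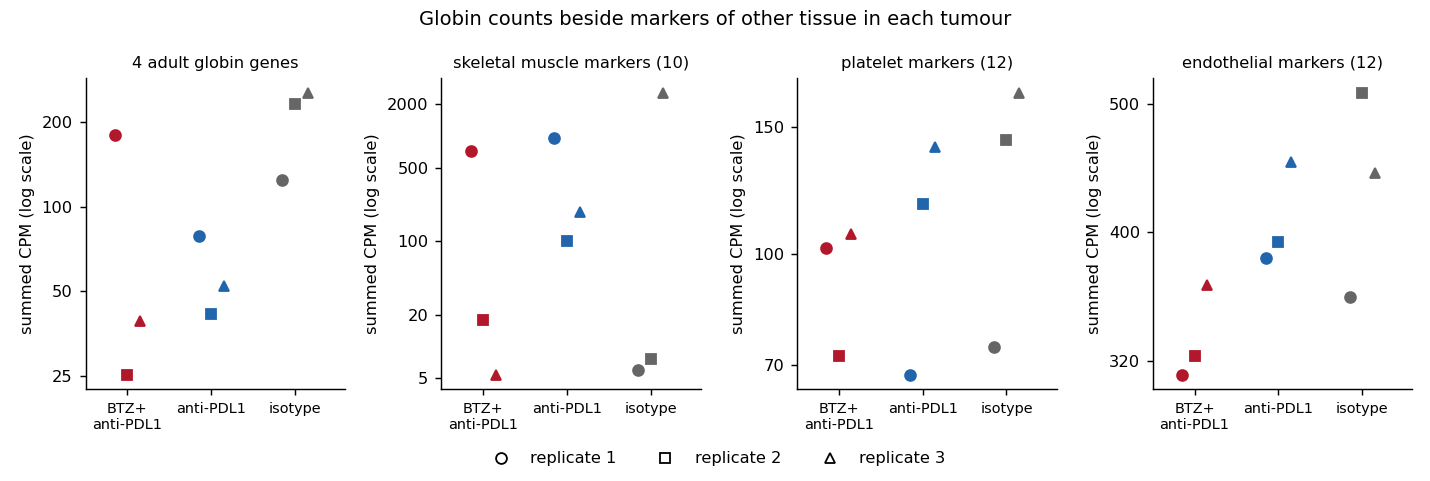
Summed CPM of the 4 adult globin genes and of markers of skeletal muscle, platelets and endothelium in each tumour, on log axes, with a point per tumour coloured by group. Muscle markers run from 5.36 to 2581 CPM, and the most muscle-rich tumour of each group also has its highest globin sum. Platelet sums follow the order of the globin sums in the isotype group but not in the other groups, and endothelial sums do so in no group.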

How the data were processed

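Per the labels, libraries came from the total RNA of subcutaneous tumours. The deposited counts are whole numbers per gene and tumour, not normalised, per the file headers, and the FPKM values are likewise the authors' deposited ones. The tools HISAT2 2.0.4 and StringTie 1.3.3b and the build mm10 are listed, without roles, per the submitters' processing notes. The counting tool, the annotation and the strand setting are not given in the sources used here, so overlapping genes and near-identical copies are uncertain.

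Columns were matched to samples by title, or by treatment and replicate number for BTZ+anti-PDL1. The test on the counts was that of edgeR 4.0.16 under R 4.3.3 (quasi-likelihood F test, robust, TMM, filterByExpr with a minimum count of 10) in 1 model of 3 group means over 9 tumours, with 6 residual degrees of freedom and Benjamini-Hochberg adjustment over 14506 genes. SE is the absolute log2 fold change over the square root of F. Log2 CPM used a prior count of 2. DESeq2 1.42.0 and limma 3.58.1 (trend, on log2(FPKM + 1) and log2(FPKM + 0.1), where 3 or more tumours reached 1 FPKM) were alternatives. The edgeR script was tested on simulated data. Motifs and copies were searched in RefSeq (GRCm38.p6) and GENCODE M21 sequences. Depth was 18.52 M to 21.51 M counts per tumour. No 2 tumours of a group matched within sampling noise.

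The members and gene lists were chosen with earlier results of these data known. Named genes are the members, a fixed panel, any listed gene called (there was none) and the 10 genes most like Hbb-bs. Outside it Hbb-bh2, Hbq1a, Hbq1b, Epo, Sftpb, Napsa, Cdh1, Krt19, Krt7 and Epcam were picked after their values were seen, as were the motifs after the sequences. Some genes of the panel and lists are not reported here by name.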

Additional observations from a re-analysis of the deposited data

How the results depend on the processing

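None of the 6 genes was called under any setting in any comparison (lowest adjusted p 0.215, in BTZ+anti-PDL1 against isotype without the 3 muscle-rich tumours, chosen after seeing the data). In anti-PDL1 against isotype all 104 alternative values kept their direction, and in BTZ+anti-PDL1 against isotype 101 of 105 did. In BTZ+anti-PDL1 against anti-PDL1 88 of 104 did. There Alas2 was -0.055 with the replicate block, -0.039 on log2(FPKM + 1) and -0.15 on log2(FPKM + 0.1), the last setting also giving -0.027 for Hba-a1 and -0.020 for Hbb-bs. Without the 3 muscle-rich tumours the values were -0.63 (Hba-a1), -0.43 (Hba-a2), -0.61 (Hbb-bs), -0.34 (Hbb-bt) and -0.65 (Alas2). With each tumour left out they ran from -0.91 to 0.98, -0.75 to 0.98, -0.85 to 0.72, -0.75 to 1.14 and -1.09 to 0.61 in the same order, and Slc4a1 in BTZ+anti-PDL1 against isotype from -0.99 to 0.32.

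Genes called over the whole table numbered 2, 2 and 1 in these comparisons, taken in the order of the report. They numbered 15, 60 and 111 with DESeq2, 1, 1 and 0 with the replicate block, and 0, 0 and 0 without the 3 muscle-rich tumours. With only the 6 tumours compared both comparisons with BTZ gave 12 and 0, and without a count filter 4 and 6. On FPKM values BTZ+anti-PDL1 against isotype gave 3 for either pseudocount. With each tumour left out the counts ran from 1 to 4, 1 to 7 and 0 to 20 (20 without isotype replicate 3). The cause of these changes was not tested. Deviations of same-numbered tumours correlated at over 0.1 in 3 of 9 pairs (-0.43 to 0.39), and those of different-numbered tumours ran from -0.42 to 0.58. The labels do not state a pairing by replicate number, and these correlations cannot exclude one. Slc4a1, with 0 to 26 counts, fell under the filter in up to 4 of the alternatives and is limited by depth.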
